A study of Glycine max with 6 samples.

Results

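A set of 152 genes was almost without counts in young soybean leaves and was counted in every library of old leaves. The members were selected from the 56044 gene models of the count table as the genes with at most 3 raw counts in each of the 3 libraries of leaves taken 20 days after germination (20 DAG) and at least 20 raw counts in each of the 3 libraries taken at 80 DAG. They were ranked by their mean CPM (the count divided by the column sum and multiplied by 1000000) at 80 DAG. The rule had room for 200 genes, and the 152 members are all the genes that met it, or 0.271% of the table. Since these counts chose the members, their difference between the ages is given as a description, and nothing is read from a test of it.

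The study sequenced RNA from leaf disks of wild-type soybean (Glycine max) of the cultivar BR16 to find genes whose expression changes as leaves senesce. The 80 DAG plants were at R7, the reproductive stage at which seeds begin to mature, and the 20 DAG plants were at V3, an early vegetative stage. The disks came from middle leaflets of the third or the seventh trifoliate leaf, and the labels do not say which leaf went into which library. Both ages are untreated plants, and the labels describe the tissue of both as vegetative. Plant age, developmental stage and leaf position cannot be told apart with these libraries. The 3 replicates per age are biological by the study's account, and the labels do not say whether plants were pooled, so that p-values measure only the spread between these libraries.

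Leaf senescence is the last phase of leaf development, in which chlorophyll, proteins and membranes are broken down and their nitrogen and other nutrients are exported to the seeds. It is an active process that needs new transcription, and in Arabidopsis members of the plant-specific NAC family of transcription factors, among them NAP, promote it. A gene that is silent in a young leaf and transcribed in an old one is commonly called a senescence-associated gene. In bulk leaf samples, however, more cells that express such a gene and more RNA per cell cannot be told apart.

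The libraries held 12353418 to 15883253 counts at 80 DAG and 10758425 to 12184798 at 20 DAG, so that 3 counts correspond to 0.189 to 0.243 CPM at 80 DAG and to 0.246 to 0.279 CPM at 20 DAG. A single gene model, Glyma.13G028200, took 27.4% of the counts of 80 DAG replicate 2, 20.5% and 20.2% of those of the other 80 DAG libraries and 18.7% to 21.5% of those at 20 DAG. The CPM of every other gene is relative to a column sum that includes this gene. The trimmed-mean (TMM) factor, which scales the library size, was 0.936 for that library, against 1.16 and 1.17 for the other 80 DAG libraries, and at 20 DAG it was 0.773, 1.09 and 0.934 for replicates 1, 2 and 3. Across all genes, edgeR's quasi-likelihood test made 14758 calls (49.1%) among the 30058 genes it tested, with an adjusted p under 0.05, and 23.1% were calls of higher expression at 80 DAG. All 152 members were tested and called higher, which the rule nearly guarantees and from which nothing is read. Every 80 DAG library was also above every 20 DAG library in all members by construction, a pattern that held for 31.6% of the tested genes.

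In sum the members had 25005, 13288 and 19857 counts in 80 DAG replicates 1, 2 and 3, against 120, 188 and 153 counts in the 20 DAG libraries. In CPM these sums were 1574, 1021 and 1607 at 80 DAG and 9.85, 15.8 and 14.2 at 20 DAG. The members therefore made up a small share of the old leaf's counts, 0.140% ± 0.0329 (SD, n = 3). The lowest of the sums at 80 DAG was that of replicate 2, and with TMM scaling it was still the lowest, at 1093 CPM against 1357 and 1377 CPM in replicates 1 and 3.

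Most members were not abundant at 80 DAG, whatever their contrast with 20 DAG. Their mean CPM at 80 DAG ranged from 1.81 to 114, with a median of 4.83 and quartiles of 3.05 and 10.3. The median of all tested genes was 7.72 CPM, and 50 members (32.9%) were above it. Mean levels of at least 10 CPM were found for 40 members, of at least 20 CPM for 10 members and of at least 100 CPM for 1 member. Among the tested genes, the members fell between percentiles 17.5 and 97.9 of mean CPM at 80 DAG, with a median percentile of 37.2. These levels are per gene and not per transcript length, so that they do not order the genes by molecules. The sum was uneven: the top 2 members held 13.6% of the members' summed mean CPM, the top 8 held 31.9% and the top 10 held 35.0%.

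None of the gene models in the table is paired with a symbol or a description in the sources used here, apart from the NAC genes of the study's inventory and a few reference genes, and the members are therefore described by their identifiers, in which the digits before the letter G give the chromosome and the digits after it the order along the chromosome. Glyma.20G137200 was the highest member, with 2213, 931 and 1636 counts in 80 DAG replicates 1, 2 and 3, against 1, 0 and 1 count in the 20 DAG libraries. Its mean at 80 DAG was 114 ± 37.3 CPM (SD, n = 3), and the ratio of its summed counts per total at 80 DAG to those at 20 DAG was 2019, with an exact 95% interval of 559 to 16676. The width of this interval comes from the 2 counts at 20 DAG, and intervals of this kind cover counting error only. Glyma.02G184300 followed with 1625, 604 and 991 counts at 80 DAG, against 1, 1 and 3 at 20 DAG, a mean of 76.3 ± 28.1 CPM and a ratio of 544 (233 to 1677). In both genes replicate 2 had the fewest counts at 80 DAG, and even that library was far above those of 20 DAG.

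Glyma.15G052700 and Glyma.10G070200 were nearly equal in level and in the pattern over the old libraries. Glyma.15G052700 had 906, 188 and 905 counts at 80 DAG, against 0, 0 and 1 at 20 DAG, and a mean of 48.2 ± 30.4 CPM. Glyma.10G070200 had 996, 190 and 820 counts at 80 DAG, against 0, 1 and 0 at 20 DAG, and a mean of 47.9 ± 28.9 CPM. In each of them, replicate 2 was far below the other 80 DAG libraries, at 0.222 and 0.226 times the mean CPM of replicates 1 and 3. Glyma.05G029000 had 769, 319 and 719 counts at 80 DAG, against 3, 3 and 1 at 20 DAG, and a mean of 43.7 ± 17.3 CPM. Glyma.16G023000 had 783, 162 and 589 counts at 80 DAG, against 2, 3 and 1 at 20 DAG, and a mean of 36.5 ± 20.8 CPM. Replicate 2 was again the lowest in both.

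A different pattern was seen in 3 of the 10 highest members. Glyma.08G050500 had 571, 604 and 516 counts at 80 DAG, against 3, 2 and 3 at 20 DAG, and its mean of 41.4 ± 5.25 CPM had a coefficient of variation (CV, the SD divided by the mean) of 0.127. Glyma.02G230800 had 352, 286 and 248 counts at 80 DAG, against 0, 1 and 0 at 20 DAG, and with 21.4 ± 1.16 CPM its CV was 0.054. The old libraries were close in these 2 genes by column sum only, since with TMM scaling the CVs were 0.250 and 0.163. Glyma.08G339600, in contrast, had 700, 715 and 196 counts at 80 DAG, against 1, 0 and 2 at 20 DAG. Here replicate 3 was the low library, at 15.9 CPM, against 44.1 and 55.0 CPM in replicates 1 and 2. Of the other members among the 15 highest, Glyma.03G084200, Glyma.17G097900, Glyma.10G170900 and Glyma.11G204700 had means of 18.8 to 19.3 CPM.

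**Figure D1:**
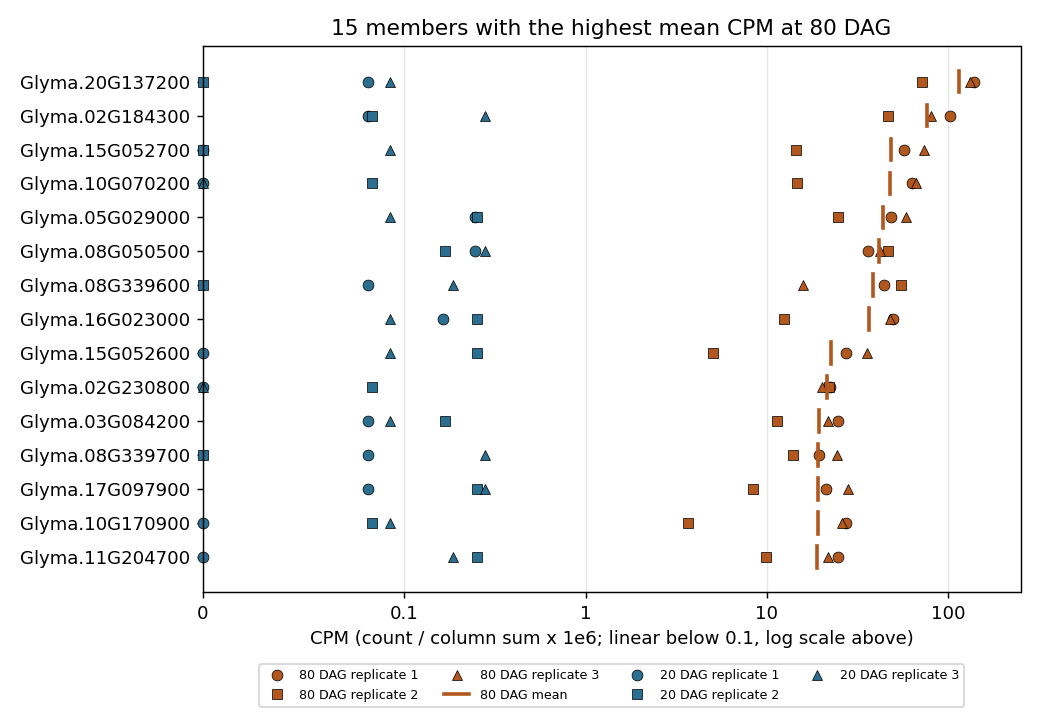
CPM of the 15 members with the highest mean at 80 DAG in each library (horizontal axis linear below 0.1 CPM and logarithmic above), with 80 DAG in orange and 20 DAG in blue, a symbol per replicate and a bar at the 80 DAG mean. The means run from 114 CPM in the top gene to 18.8 CPM in the lowest shown, and in most genes the square of 80 DAG replicate 2 lies left of the other old libraries.

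At 20 DAG the members were near the limit of detection rather than uniformly at 0. No count in any 20 DAG library was found for 29 members, while 93 members had at most 3 counts over the 3 libraries together and 1 member had 9. The highest count in a 20 DAG library was 1 in 37 members, 2 in 37 and 3, the maximum allowed, in 49. At least 1 count was found for 74, 98 and 87 members in 20 DAG replicates 1, 2 and 3, and 29 of the 49 members with a count of 3 had it in replicate 2. For the 123 members with counts at both ages the ratio of summed counts per total had a median of 61.2 and ranged from 8.13 to 2019.

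The 29 members without a count at 20 DAG were not the most abundant ones at 80 DAG. Set against 3 counts over the 20 DAG group, they were at least 20.6-fold to at least 165-fold higher at 80 DAG, with a median bound of 41.4-fold. Glyma.02G007500 had the highest mean, with 239, 60 and 288 counts at 80 DAG against 0, 0 and 0 at 20 DAG, and was at least 165-fold higher. Glyma.16G044200 had 253, 169 and 112 counts at 80 DAG against 0 in each 20 DAG library, and was at least 150-fold higher. Glyma.04G102600 had 167, 90 and 237 counts at 80 DAG against 0 in each 20 DAG library, and was at least 139-fold higher. The low library at 80 DAG was replicate 2 in Glyma.02G007500 and Glyma.04G102600, and replicate 3 in Glyma.16G044200. Glyma.04G181100 had 194, 110 and 157 counts at 80 DAG against 0 in each 20 DAG library, a bound of 129.8-fold. Glyma.12G007400 had 189, 21 and 273 counts at 80 DAG against 0 in each 20 DAG library, and its bound of 136-fold rests on replicates 1 and 3.

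The spread between the 80 DAG libraries was wide in the members. The median CV over the 3 libraries was 0.330 for the members (quartiles 0.223 and 0.467), against 0.179 for the 24003 other tested genes in the same range of mean CPM and 0.219 for the 6244 of these that were called higher at 80 DAG. With TMM scaling the medians were 0.308, 0.143 and 0.169. Counting error alone would give the members a median CV of 0.123, and 138 of the 152 exceeded the value that counting gives for their own counts. The spread was not limited to faint genes, since the median CV was 0.374 in the 51 members of highest level, 0.334 in the 51 in the middle and 0.287 in the 50 of lowest level. The CV was below 0.1 in 7 members and above 0.5 in 34. No test of these differences was made, since the minimum of 20 counts in every old library and the maximum at 20 DAG both bear on the spread.

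By column sum, the members with the lowest CV at 80 DAG included several of modest level. Glyma.16G218900 had 77, 62 and 56 counts at 80 DAG, against 1, 3 and 0 at 20 DAG, and 4.72 ± 0.163 CPM (CV 0.0346). Glyma.06G205800 had 83, 65 and 60 counts at 80 DAG, against 0, 1 and 2 at 20 DAG, and a CV of 0.037. Glyma.07G155500 had 124, 94 and 97 counts at 80 DAG, against 0, 2 and 1 at 20 DAG, and a CV of 0.0459. Glyma.17G116100, at 68, 63 and 61 counts in the 80 DAG libraries against 0 in each 20 DAG library, and Glyma.02G230800 completed the 5 lowest. This ranking depended on the scaling: with TMM factors the CVs were 0.145 in Glyma.16G218900, 0.131 in Glyma.06G205800, 0.0824 in Glyma.07G155500, 0.173 in Glyma.17G116100 and 0.163 in Glyma.02G230800. Other members were then steadier, among them Glyma.09G237600 (0.0268) and Glyma.19G179900 (0.0513), named after their values were seen.

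At the other end, the most variable member was Glyma.08G138600, with 33, 25 and 101 counts at 80 DAG against 3, 2 and 3 at 20 DAG (CV 0.879). Its level at 80 DAG came mostly from replicate 3, with 8.18 CPM against 2.08 and 1.92 CPM in replicates 1 and 2, and the ratio between the ages was 16.8 (8.32 to 39.6). Glyma.12G007400 followed with a CV of 0.863. Glyma.10G170900 had 434, 48 and 322 counts at 80 DAG against 0, 1 and 1 at 20 DAG (CV 0.699), and Glyma.13G123100 had 189, 25 and 156 counts at 80 DAG against 0 in each 20 DAG library (CV 0.679). In these last 3 genes, and in Glyma.15G052600 (CV 0.695), the low library was replicate 2.

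Replicate 2 was the lowest 80 DAG library in 89 of the 152 members (58.6%). The share was 70.1% in other tested genes of the same CPM range and 78.2% in those of them that were called higher. The rule asked for at least 20 counts in replicate 2 of the members and not of these other genes. This bears on every share given here for replicate 2, and no difference between them was tested. Replicate 2 was below 0.5 times the mean of replicates 1 and 3 in 41 members (27.0%), against 10.1% of other tested genes of like level and 20.8% of those called higher. In 45 members (29.6%) replicate 2 was instead above that mean, and the ratio ranged from 0.0949 in Glyma.12G007400 to 2.73. With TMM scaling, replicate 2 was lowest in 67 members (44.1%), against 38.1% of other tested genes of like level and 52.0% of those called higher. The share of counts in Glyma.13G028200 was highest in the same library, and its part in the lower CPM of the members was not tested beyond the TMM scaling.

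**Figure D2:**
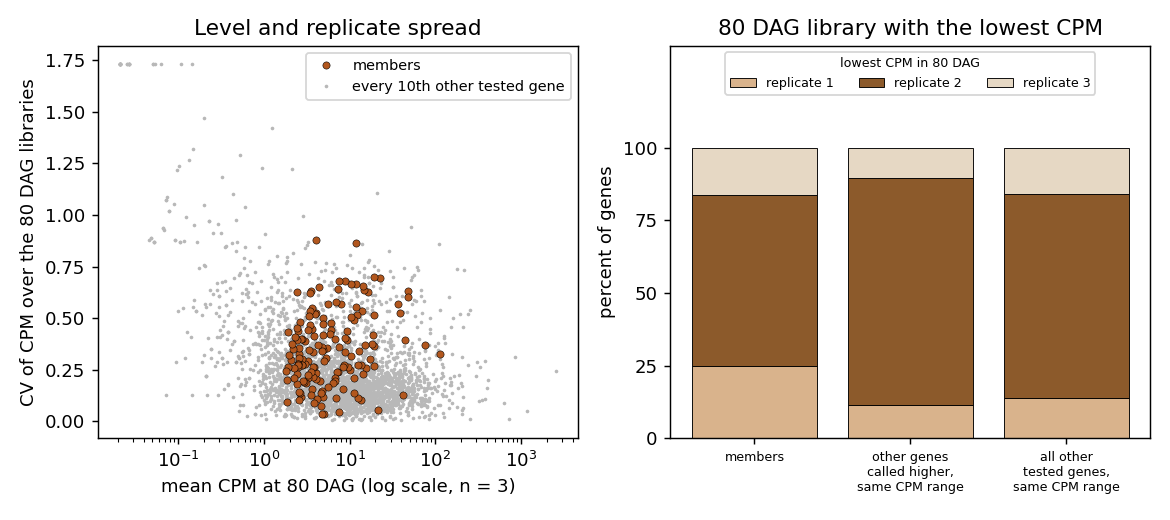
Left, mean CPM at 80 DAG (logarithmic axis, n = 3) against the CV over the 80 DAG libraries for the 152 members (orange) and 1 in 10 of the other tested genes (grey). Right, the percent of genes whose lowest CPM at 80 DAG was in replicate 1, 2 or 3, with replicate 2 lowest in 58.6% of members, 78.2% of other genes called higher and 70.1% of all other tested genes of the same CPM range. Only the members were selected for at least 20 counts in each 80 DAG library, which bears on these shares.

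The thresholds cut through a continuous range of genes. At the minimum for 80 DAG, 9 members had a lowest count of exactly 20 and 9 of exactly 21, while 6 genes failed with 19 and 11 with 18. Just inside were Glyma.15G232400, with 36, 20 and 22 counts at 80 DAG, Glyma.17G116800, with 21, 20 and 35, and Glyma.14G056300, with 33, 20 and 42. Just outside was Glyma.11G129700, with 424, 19 and 302 counts at 80 DAG against 0, 3 and 3 at 20 DAG, whose mean of 17.5 CPM was above that of most members. Glyma.10G026000 (69, 19 and 65 counts at 80 DAG) and Glyma.19G108100 (71, 51 and 19) also missed by 1 count. In all, 134 genes met the rule except for 1 old library, and that library was replicate 2 for 100 of them, replicate 3 for 30 and replicate 1 for 4.

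At the maximum for 20 DAG, 49 members had a highest count of 3, and 46 further genes with at least 20 counts in each 80 DAG library had a highest count of 4. Just inside were Glyma.09G080100 (22, 31 and 24 counts at 80 DAG against 3, 2 and 3 at 20 DAG), Glyma.19G132700 (24, 35 and 21 against 2, 3 and 2) and Glyma.07G120800 (21, 28 and 36 against 1, 3 and 2). The ratio between the ages in Glyma.09G080100 was 8.13 (3.93 to 19.5), the smallest among the members. Just outside was Glyma.15G019200, with 2178, 483 and 2147 counts at 80 DAG against 4 in each 20 DAG library. At 116 CPM it would have been the highest member. Glyma.03G142100 (405, 92 and 419 counts at 80 DAG against 2, 3 and 4 at 20 DAG) and Glyma.07G043000 (244, 144 and 282 against 0, 4 and 2) were excluded by the same single count. Scaling the counts to the mean library size before the same thresholds left 91 genes, all of them among the 152, while 280 genes met the rule without 20 DAG replicate 2 and 252 without 80 DAG replicate 2.

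The members were found on all 20 chromosomes, and 1 lay on an unplaced scaffold. Chromosome 9 held 13 members, chromosome 15 held 12 and chromosome 8 held 11, against 3 each on chromosomes 3, 5 and 7. Relative to the number of tested genes, the density was 8.84 members per 1000 on chromosome 9, 8.39 on chromosome 15 and 7.77 on chromosome 16, against 5.06 over all tested genes and 1.96 on chromosome 7. By summed level the order was another, since chromosome 20 held 174 CPM, most of it in Glyma.20G137200, chromosome 8 held 150.0 CPM and chromosome 2 held 143 CPM, while the 13 members of chromosome 9 summed to 63.1 CPM.

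**Figure D3:**
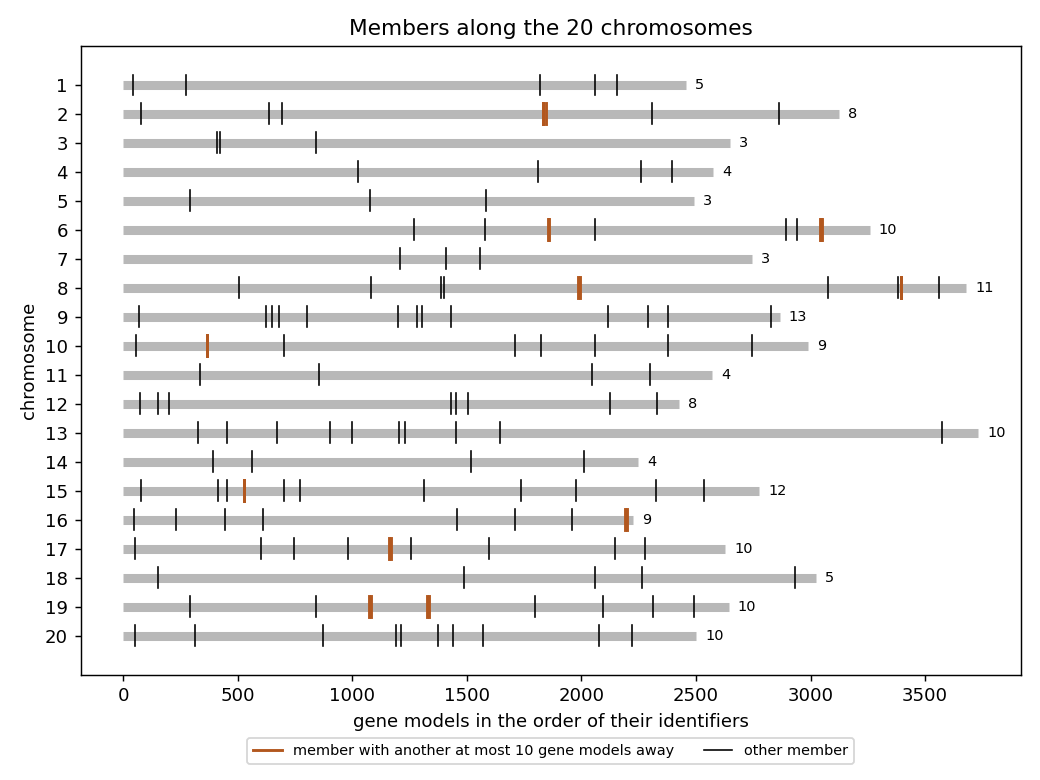
The members on each of the 20 chromosomes, placed by the order of gene models in the identifiers (horizontal axis), with the number of members at the right end of each bar. Members with another member at most 10 gene models away are orange (24 members in 11 clusters), and the other 127 placed members are black.

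Clusters of members were sought as runs in which neighbouring members were at most 10 gene models apart in the identifiers. There were 11 such clusters with 24 members on 8 chromosomes, 2 of them with 3 members and 9 with 2, and 128 members stood outside. A member was within 10 gene models of another in 15.9% of the placed members, while 5.17% of other tested genes had a member that near. Within 1 gene model the shares were 3.97% of members and 0.541% of other tested genes. Among the other tested genes called higher at 80 DAG, 6.13% had a member within 10 gene models and 1.18% within 1. The number in clusters depended on the thresholds of the rule and on the libraries: with the counts scaled to the mean library size, 4 of the 91 genes were clustered (4.40%), against 3.13% of other tested genes. Without 20 DAG replicate 2, 69 of 280 were clustered (24.6%, against 9.21% of other tested genes), and without 80 DAG replicate 2, 52 of 252 (20.6%, against 8.25%). At most 5 gene models apart were 10 members. The clusters are described by position alone, since no sequence or annotation was used here to say whether their members are copies of each other.

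There were 3 pairs of directly adjacent members, with means from 7.60 to 48.2 CPM at 80 DAG. On chromosome 15, Glyma.15G052600 had 434, 66 and 438 counts at 80 DAG against 0, 3 and 1 at 20 DAG, and its neighbour is Glyma.15G052700, the third highest member. The second gene had 2.09, 2.85 and 2.07 times the counts of the first in 80 DAG replicates 1, 2 and 3, so that both fell to their lowest value in replicate 2. The gene models on either side did not share the pattern: Glyma.15G052500 had 27, 20 and 19 counts at 80 DAG against 37, 23 and 29 at 20 DAG, and Glyma.15G052800 had none in any library. On chromosome 10, Glyma.10G036600 had 158, 22 and 138 counts at 80 DAG against 0, 1 and 0 at 20 DAG, and Glyma.10G036700 had 316, 73 and 201 against 0, 1 and 1. This pair too was lowest in replicate 2, with the second gene at 2.00, 3.32 and 1.46 times the first. On one side Glyma.10G036500 had no count, and on the other Glyma.10G036800 had none at 80 DAG against 6, 5 and 3 at 20 DAG.

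The pair on chromosome 8 differed from these. Glyma.08G339600 and Glyma.08G339700 did not keep a constant proportion, with the second gene at 0.437, 0.255 and 1.53 times the first in the 80 DAG replicates. Glyma.08G339700 had 306, 182 and 299 counts at 80 DAG against 1, 0 and 3 at 20 DAG, so that it was lowest in replicate 2, whereas Glyma.08G339600 was lowest in replicate 3. The pair stood beside Glyma.08G339400 and Glyma.08G339500, which were present at both ages and called higher at 80 DAG. Glyma.08G339500 had 6389, 3080 and 3338 counts at 80 DAG against 195, 696 and 985 at 20 DAG, and Glyma.08G339400 had 2212, 1459 and 1093 against 37, 92 and 104. Reads shared between near-identical genes would be of uncertain assignment here.

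**Figure D4:**
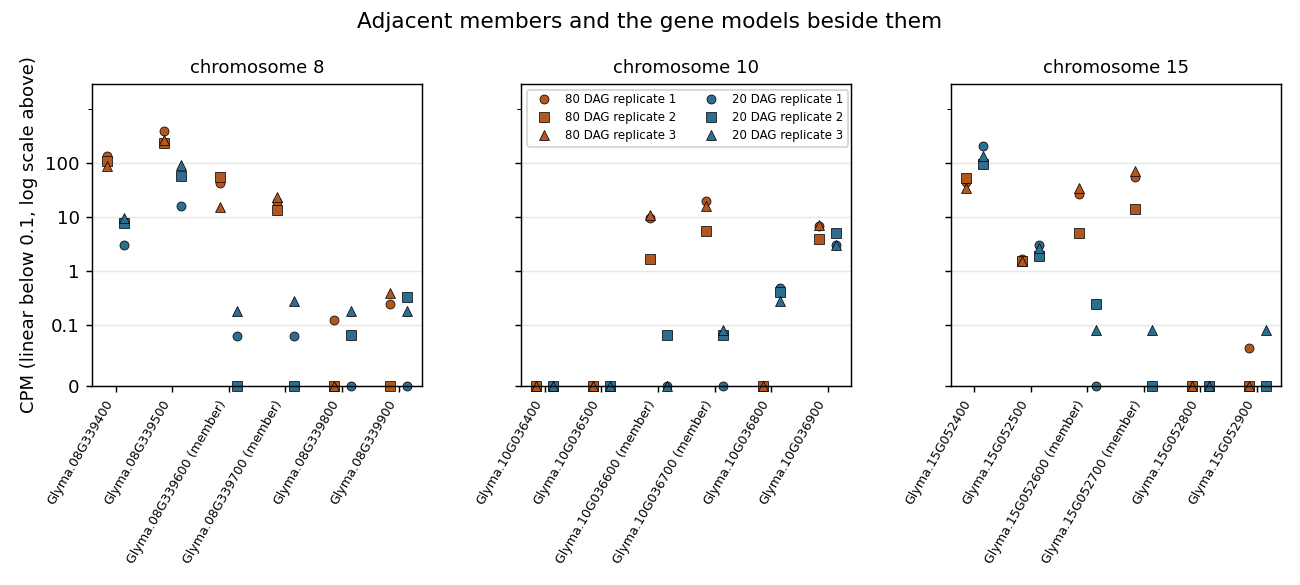
CPM per library (vertical axis linear below 0.1 and logarithmic above) of the 3 pairs of adjacent members and the 2 gene models on each side, with 80 DAG in orange left of 20 DAG in blue and a symbol per replicate. On chromosomes 10 and 15 none of the 4 models beside the pair shows the gap between the ages that the pair shows, and on chromosome 8 the 2 models before the pair are higher at 80 DAG.

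Of the clusters of 3 members, that on chromosome 2 mixed strong and faint genes, while that on chromosome 6 held only genes of low level. On chromosome 2, the second highest member, Glyma.02G184300, was 10 gene models from Glyma.02G183300 (100, 41 and 30 counts at 80 DAG against 3, 3 and 0 at 20 DAG), which was 3 from Glyma.02G183000 (37, 20 and 46 against 0 in each 20 DAG library). Of the 11 gene models between them, 4 were called higher, 1 lower, 1 was without a call and 5 had too few counts to be tested. Glyma.02G183400, next to Glyma.02G183300, had 100, 44 and 34 counts at 80 DAG against 0, 5 and 3 at 20 DAG and missed the rule by its count of 5. On chromosome 6, Glyma.06G304100, Glyma.06G304500 and Glyma.06G305200 had means of 2.86, 5.43 and 2.54 CPM at 80 DAG. Glyma.06G305200 had 28, 35 and 39 counts at 80 DAG against 0 in each 20 DAG library. Of the other 2-member clusters, that of Glyma.08G198600 (141, 48 and 67 counts at 80 DAG against 2, 3 and 1 at 20 DAG) and Glyma.08G199400 (452, 126 and 142 against 2, 0 and 1) was the highest, and in both of its genes replicate 1 stood above the other old libraries. In the cluster on chromosome 16, Glyma.16G219700 had 174, 86 and 134 counts at 80 DAG against 0 in each 20 DAG library, while its partner was Glyma.16G218900, described above.

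Genes directly beside a member were more often called higher at 80 DAG than genes elsewhere. Of the 296 gene models adjacent to a member and not members themselves, 161 were tested, and 80 of these (49.7%) were called higher and 26 (16.1%) lower by edgeR at an adjusted p under 0.05. Of the other placed genes, 22.6% were called higher and 26.2% lower. The share fell off with distance, at 30.5% for genes 2 gene models away, 25.3% at 3 and 21.3% at 4, against 22.5% beyond 10. The same was seen around genes other than the members: beside the 997 other genes called higher with a fitted log2 fold change of at least 3 the share was 42.3%, and beside any other gene called higher it was 30.7%. Neighbouring genes are not independent, and no test of these shares was made. Of the 80 adjacent genes called higher, 4 had at most 3 counts in each 20 DAG library. The share among other genes called higher was not computed.

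**Figure D5:**
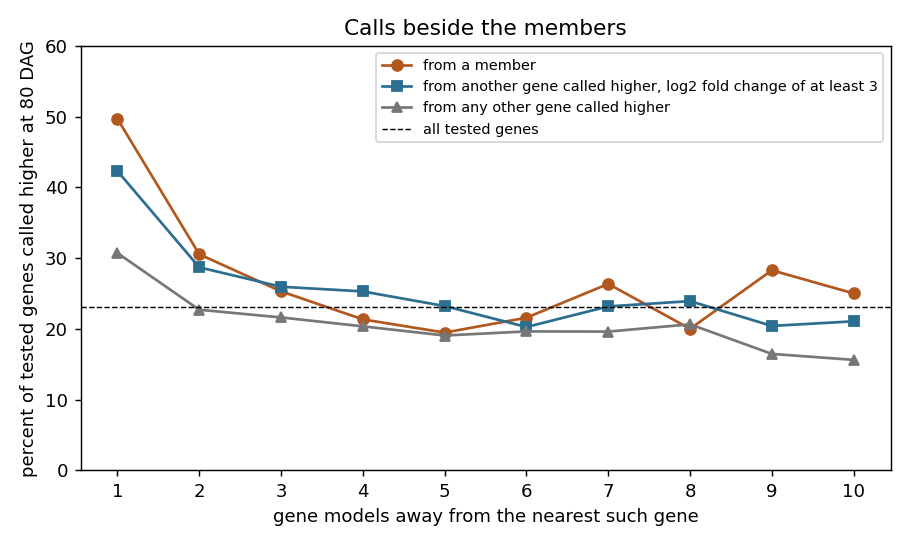
Percent of tested genes called higher at 80 DAG (vertical axis) by their distance in gene models from the nearest member (orange), from the nearest other gene called higher with a log2 fold change of at least 3 (blue) and from any other gene called higher (grey). The share beside a member is 49.7%, against 42.3% and 30.7% beside the other genes, and the dashed line marks the 23.1% of all tested genes.

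For 69 members at least 1 adjacent gene was called higher, and in 55 of these the neighbour had the higher CPM at 80 DAG. The members were lower in level than tested genes at large, with medians of 4.83 and 7.72 CPM at 80 DAG. The same counts were not made for other genes, so nothing particular to the members is read from them. Glyma.06G294000, a member at 8.75 CPM, stood beside Glyma.06G294100, which had 4446, 2260 and 3251 counts at 80 DAG against 50, 193 and 199 at 20 DAG and was 27.3 times as high. Glyma.12G212600, at 2.76 CPM, stood beside Glyma.12G212500, which had 1168, 272 and 991 counts at 80 DAG against 9, 49 and 20 at 20 DAG. Both neighbours had counts in every 20 DAG library, in contrast to the members beside them. The reverse order was seen at Glyma.02G184300 and Glyma.05G029000, whose neighbours called higher were at 0.0839 and 0.0657 times the level of the member. Glyma.19G108200 (56, 57 and 26 counts at 80 DAG against 0 in each 20 DAG library) and its neighbour Glyma.19G108100, the gene that missed the rule by 1 count, were at 3.34 and 3.31 CPM. Glyma.06G294000, Glyma.12G212600, Glyma.19G108200 and the neighbours of members were named after their values were seen. Overlapping gene models, and models on opposite strands, could share reads, and this was not tested.

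Of the 180 NAC genes of the study's inventory, 1 was a member. GmNAC113 (Glyma.15G070300), placed by the study in the NAP branch of NAC factors that is known for promoting senescence in Arabidopsis, had 49, 63 and 81 counts at 80 DAG against 1, 0 and 1 at 20 DAG. Its mean of 4.83 ± 1.74 CPM (SD, n = 3) was close to the median of the members, and the ratio between the ages was 81.5 (22.3 to 678). Unlike most members, it was not lowest in 80 DAG replicate 2. GmNAC148 narrowly missed the rule, with 47, 16 and 70 counts at 80 DAG against 0, 2 and 1 at 20 DAG, in which only replicate 2 failed. GmNAC088 had 56, 1 and 61 counts at 80 DAG against 1, 0 and 3 at 20 DAG, and with 1 count in replicate 2 it was far from the minimum there.

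At 20 DAG, 63 of the 180 NAC genes had at most 3 counts in each library, against 20449 of the 56044 gene models of the table. Of these NAC genes, 27 had no count in any of the 6 libraries, against 12326 gene models of the table. Of the 85 NAC genes with enough counts to be tested, 34 (40%) were called higher at 80 DAG, against 23.1% of all tested genes, 14 were called lower and 37 were without a call. At most 3 counts in each 20 DAG library were found for 2 of the 34 called higher, GmNAC113 and GmNAC148. Within 10 gene models of a member there were 12 pairs of a member and a NAC gene. Of these NAC genes 4 had too few counts to be tested, and 6 of the 8 tested were called higher. The share was 26.9% in all tested non-members that near a member and 40% in all tested NAC genes. These differences were not tested. GmNAC039, 6 gene models from Glyma.06G158000, had 2747, 415 and 1649 counts at 80 DAG against 21, 140 and 69 at 20 DAG, and a log2 fold change of 3.88. GmNAC124, 10 gene models from Glyma.16G044200, had 1510, 1224 and 1162 counts at 80 DAG against 23, 139 and 75 at 20 DAG, and GmNAC181, 6 from Glyma.19G108200, had 412, 221 and 331 against 12, 59 and 17. These NAC genes had counts in every 20 DAG library, in contrast to Glyma.16G044200 and Glyma.19G108200.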

How the data were processed

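RNA was extracted with Trizol, stranded Illumina libraries were prepared and sequenced, and the authors deposited raw counts per gene model of the soybean annotation Wm82.a2.v1, without normalization, for 56044 gene models in 6 libraries. The submitters' processing notes name CASAVA 1.7, Bowtie2 and DESeq2. The counting program, its use of strand and its handling of reads with several matches are not given in the sources used here, so that reads of near-identical, overlapping or antisense genes are of uncertain assignment. Column names gave each library its age and replicate, with 0 columns unmapped. The columns summed to between 10758425 and 15883253 counts.

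The members and lists were chosen with earlier results of these data known. CPM was the count over the column sum, times 1000000. Ages were compared with edgeR 4.0.16 (R 4.3.3; quasi-likelihood test, TMM scaling, default filterByExpr filter, Benjamini-Hochberg adjustment over all tested genes, adjusted p under 0.05), which was tested on simulated data. In the simulated data far fewer genes changed than were called here, and all genes were given the same spread between replicates. They therefore do not show how the test behaves with the spread of these libraries. The study's methods use DESeq2, which was run as an alternative (DESeq2 1.42.0). Other alternatives were DESeq2 size factors, library size alone, no filter, a replicate block, a stricter threshold, a fold minimum, leaving out each library, other thresholds of the count rule and other cluster distances. Descriptions were computed with Python 3.11.15, pandas 2.3.3 and scipy 1.17.1. Ratios between ages are summed counts per total with exact 95% intervals. Where the 20 DAG count was 0, a bound against 3 counts over the group was used.

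Named members are the 15 of highest mean CPM at 80 DAG, the 5 of lowest and the 5 of highest CV, members of clusters of 3 and of the 5 highest clusters of 2, members in the NAC inventory, the 3 on each side of each threshold, and the 5 highest without a count at 20 DAG. Lists of other pathways and cell type markers had been set by keywords, but 0 of the 56044 identifiers matched the reference table used here (Glycine_max_v4.0), so that these lists, promoter motifs and proteins were not analysed here and the tissue was not checked against markers.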

Additional observations from a re-analysis of the deposited data

How the results depend on the processing

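All 152 members were called higher at 80 DAG under every fit tried, which the rule nearly fixes. The number of genes called in either direction was 14758 and was 9492 at an adjusted p under 0.01. Replicate numbers were not treated as pairs in the main fit. The same-numbered libraries of the 2 ages had correlations of deviations of -0.24, -0.32 and 0.05. Those of different numbers ranged from -0.26 to 0.35, and so few values cannot show whether libraries were paired. A fit with the replicate number as a block called 11702 genes. Leaving out each library in turn gave 11696 to 14817. The count rule gave 29 genes with 0 counts at 20 DAG, 234 with at most 5 counts, 317 with at least 10 counts at 80 DAG, 65 with at least 50, 91 on scaled counts, and 156 to 280 when each library was left out. The members in clusters were 10 at a distance of at most 5 gene models, 4 on scaled counts and 24 to 69 when each library was left out. Of the tested genes beside a member, 40.5% were called higher with no filter (16.8% of others) and 41.0% with the replicate block (16.9%). The share was 36.6% at an adjusted p under 0.01 (12.9%) and 40.4% with a log2 fold change of at least 1 (15.3%). When each library was left out it was 41.9% to 48.8% (15.8% to 21.7% of others). TMM scaling multiplied the mean levels of the 43 named members by 0.868 to 0.961, and 4 of them moved by 1 SD or more. Leaving out 1 of 3 libraries cannot move a mean by 1 SD, so nothing is read from those values. At 20 DAG a count of 0 allows up to 3 counts, so that it does not show that a gene was silent.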

Other observations

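The rule of the members was met by 152 genes, and the opposite rule, at most 3 counts in each 80 DAG library and at least 20 in each 20 DAG library, by 401 genes. Of these 401 genes, 18.0% had another gene of the same set within 10 gene models, while 13.0% of the other gene models of the table had one that near, and within 1 gene model the shares were 7.48% and 1.40%. Counts were also read for the reference and stress genes of the PCR primer list. The seed maturation gene SMP (Glyma.20G147500) had no count in any of the 6 libraries, and PR-4, a pathogenesis-related gene, had 301, 271 and 392 counts at 80 DAG against 18, 111 and 35 at 20 DAG. PDI had 308, 172 and 188 counts at 80 DAG against 89, 136 and 104 at 20 DAG. PR-4 and PDI were called higher at 80 DAG, while CNX (74.9 CPM at 80 DAG and 68.1 CPM at 20 DAG) and UKN-2 (1.41 CPM at 80 DAG and 0.926 CPM at 20 DAG) were without a call.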
